A study of Mus musculus with 10 samples.

Results

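The Hoxa cluster, Meis1 and Pbx3 were examined for IKZF2 CUT&RUN signal in mouse leukaemia cells. The members were all deposited regions that overlap a fixed 200 kb window of chromosome 6 (mm10) around the cluster or that lie in or within 50 kb of the span of Meis1 (chromosome 11) or Pbx3 (chromosome 2). They numbered 62 of 151133 regions: 15 in the Hoxa window, 20 in the Meis1 window and 27 in the Pbx3 window. Of the Hoxa genes, Hoxa5, Hoxa6, Hoxa7, Hoxa9 and Hoxa10 were followed gene by gene, together with Meis1 and Pbx3. The assay used RN2 cells, a C57BL/6 leukaemia line that carries MLL-AF9 and NRASG12D, and all cells analysed had received a retrovirus with murine IKZF2 and RFP, so every value comes from cells that overexpress the factor. An anti-IKZF2 antibody was used in 6 samples, which are 3 libraries with 2 technical replicates each, and 4 control antibody samples are not analysed here. The members were therefore set against other genes and regions of the same 3 libraries, and background signal of the assay was not measured. The labels do not say whether the libraries came from separate cultures, so spreads (SD) cover the differences between these libraries, which may be technical. The p-values printed here are set against the variation between technical replicates that remains once library and technical replicate are accounted for.

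IKZF2 (Helios) is a DNA-binding zinc-finger protein related to Ikaros that recruits chromatin remodelling complexes. HOXA proteins are homeodomain transcription factors that are active in haematopoietic stem and progenitor cells and are switched off as myeloid cells mature. MEIS1 and PBX3 are homeodomain partners that bind DNA together with HOXA9, and in leukaemias with an MLL fusion these genes are kept active by the fusion protein.

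The sequences that bear on the members are 4 promoter windows of 300 bases, from 250 bases before a listed start to 50 after it, from RefSeq (build GRCm38.p6, with the same coordinates as mm10). The first belongs to Mapkap1, a gene next to Pbx3 that encodes a subunit of the mTORC2 kinase complex. It is shown because the strongest of the 62 regions, chr2:34406704-34406818, lies in it, and its capitals mark the 115 bases from that region's deposited start to its end (the window is chr2:34406521-34406820, plus strand; the deposited starts may count from 0 or from 1, so the first capital may be off by 1).
Mapkap1: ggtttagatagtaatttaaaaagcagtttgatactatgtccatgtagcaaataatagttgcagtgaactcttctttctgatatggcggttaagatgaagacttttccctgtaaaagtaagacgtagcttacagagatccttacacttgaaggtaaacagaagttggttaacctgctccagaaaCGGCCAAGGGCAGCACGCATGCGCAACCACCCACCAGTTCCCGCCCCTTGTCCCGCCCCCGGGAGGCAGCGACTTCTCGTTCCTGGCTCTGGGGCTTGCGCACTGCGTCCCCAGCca
The other 3 are the member promoters that hold TGGGAA, the core motif of the Ikaros family, read on either strand and marked by the capitals. They lie at chr11:19018920-19019219 (Meis1), chr6:52208623-52208922 (Hoxa6) and chr6:52227321-52227620 (Hoxa9), all on the minus strand. The Mapkap1 window does not hold this motif on either strand, and its capitals mark the region only.
Meis1: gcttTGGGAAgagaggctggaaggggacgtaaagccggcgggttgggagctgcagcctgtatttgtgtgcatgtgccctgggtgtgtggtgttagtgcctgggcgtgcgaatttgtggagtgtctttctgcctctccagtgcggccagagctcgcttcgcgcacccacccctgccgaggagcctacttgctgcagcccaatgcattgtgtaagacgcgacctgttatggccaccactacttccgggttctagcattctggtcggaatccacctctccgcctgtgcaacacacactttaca
Hoxa6: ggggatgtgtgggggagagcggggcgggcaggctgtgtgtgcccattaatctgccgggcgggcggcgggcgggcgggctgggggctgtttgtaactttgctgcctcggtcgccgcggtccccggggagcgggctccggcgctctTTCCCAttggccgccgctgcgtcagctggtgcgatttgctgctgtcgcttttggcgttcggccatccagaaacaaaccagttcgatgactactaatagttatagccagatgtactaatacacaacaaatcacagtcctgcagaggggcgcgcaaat
Hoxa9: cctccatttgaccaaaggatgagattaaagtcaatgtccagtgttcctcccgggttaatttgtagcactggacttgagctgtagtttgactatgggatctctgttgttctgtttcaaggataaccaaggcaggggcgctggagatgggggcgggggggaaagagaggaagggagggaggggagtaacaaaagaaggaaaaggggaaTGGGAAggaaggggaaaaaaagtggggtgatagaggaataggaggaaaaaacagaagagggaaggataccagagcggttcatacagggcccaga
The first letter of the match stood 246 bases before the start in Meis1, 106 bases in Hoxa6 and 44 bases in Hoxa9, and the Hoxa6 match reads TTCCCA because it lies on the other strand. The promoter table matched 6 of the 7 genes (all but Pbx3), with 7 windows, since Hoxa10 has 2 listed starts. TGGGAA was in 3 of these 7 windows and in 25.6% of 32851 promoters of the same length. TGATNNAT, a motif of PBX-HOX pairs, was in 0 of the 7 windows and 8.85% of all promoters, and TGACAG, a MEIS motif, was in 0 of 7 and 19.2%.

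No deposited region overlapped a promoter window of the 6 matched genes, and Pbx3 was not checked. A region was in 0 of the 7 windows of these genes, against 18.5% of all promoter windows. Widening the view to 1 kb around the listed start gave 0 of 7 for the members and 30.2% for all promoters. The nearest regions lay 1267 bp from the Meis1 window, 1834 bp from the Hoxa6 window and 3330 bp from the Hoxa9 window. The 3 motif-bearing promoters printed above therefore lay outside the called regions. Of the 62 member regions, 4 (6.45%) lay within 1 kb of any listed start, as did 6.04% of all regions; this count holds no start of Pbx3. Those starts were of Mapkap1, which a region overlapped, of Hoxa3 at 382 bp, of the long noncoding RNA Hottip at 413 bp and of Hoxa11 at 683 bp. Hoxa3 and Hoxa11 encode homeodomain factors of the same cluster, and Hottip is transcribed from its Hoxa13 end.

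Signal over a region is given as CPM (reads scaled to the total in regions of each library) per kb of region, after summing the technical replicates of each library. The member regions had a median level of 49.99 CPM per kb, against 49.49 over all regions, and a median width of 110 bp, against 109 bp. Reads were present in all 3 libraries in 60 of the 62 (96.8%), against 95.6% of all regions, and in all 6 samples in 14 (22.6%), against 22.8%. A region counted as strong if it stood in the top 10% by mean level over the 3 libraries. There were 6 strong regions among the 62 members (9.68%), beside 10.0% of all regions, so the share among the members was near the background. They were 1 of 15 in the Hoxa window, 2 of 20 in the Meis1 window and 3 of 27 in the Pbx3 window. Within single libraries the members in the top 10% were 7 (11.3%) in library 1, 8 (12.9%) in library 2 and 3 (4.84%) in library 3. The shares of all regions were 10.0%, 9.97% and 9.96%.

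The recurrence of strong signal across libraries was near the background in the members. The members that were in the top 10% of each of the 3 libraries numbered 0 of 62, beside 0.641% of all regions. In 2 or more libraries it was 2 of 62, both in the Pbx3 window, beside 2.27% of all regions. Another 14 (22.6%) reached the top 10% in 1 library only, beside 24.8% of all regions. The library with the most signal held a median of 48.8% of a member region's summed CPM, against 49.0% over all regions. Without division by width, 13 of the 62 members (21.0%) were in the top 10% by CPM, beside 10.0% of all regions. All 8 members of at least 200 bp were among the 13, and 12.9% of the members were that wide, against 8.86% of all regions. Over all regions, 9118 of the 13386 that wide were in the top 10% by CPM. Whether width accounts for the higher share among the members was not tested. When only regions of at least 200 bp were ranked, 0 of the 8 wide members were in the top 10% by CPM per kb.

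**Figure D1:**
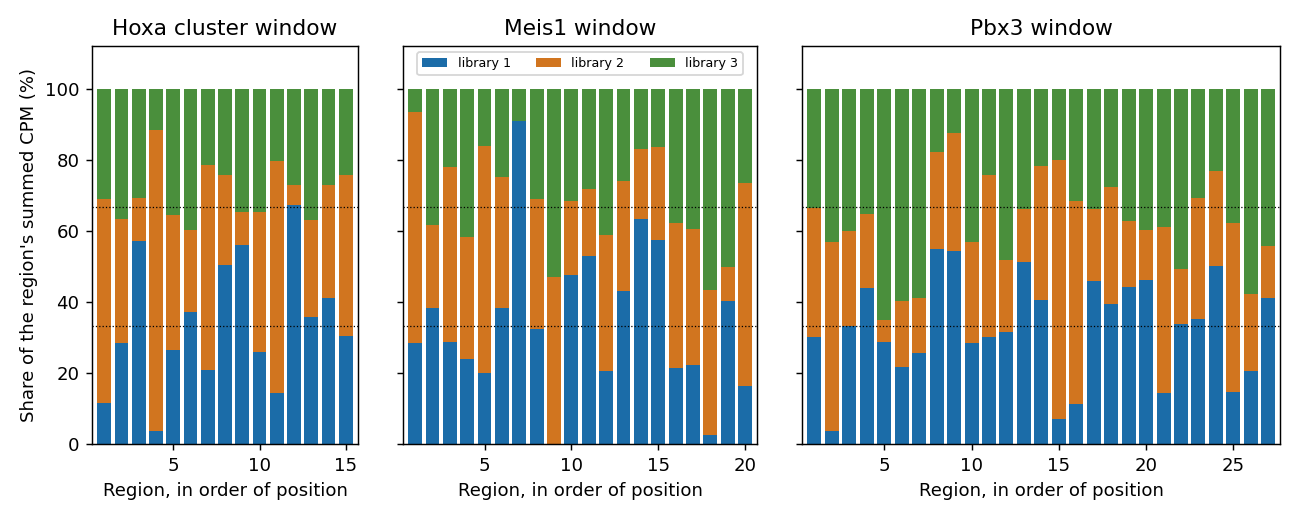
Share of each member region's summed CPM (%) held by library 1, 2 and 3, with regions in order of position in the Hoxa, Meis1 and Pbx3 windows. Dotted lines mark where the bars would divide if the 3 libraries were equal. In most bars the 3 colours differ in height, and the highest library holds a median of 48.8%.

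Read over whole windows, all 3 loci stood near the middle of the genome. The Meis1 and Pbx3 windows were ranked among the same windows, the span with 50 kb on either side, of 21887 protein-coding genes. The fixed Hoxa window, which holds several genes, was ranked among these single-gene windows too. Its percentiles of signal and of region number therefore set unlike windows side by side. The Hoxa window had 52.8, 67.8 and 47.8 CPM per 100 kb in libraries 1, 2 and 3, a mean of 56.2 ± 10.4 (SD, n = 3), at percentile 50.7. Meis1 had 65.6, 62.3 and 53.6 CPM per 100 kb, a mean of 60.5 ± 6.20, at percentile 55.4. Pbx3 had 57.8, 56.8 and 66.2 CPM per 100 kb, a mean of 60.2 ± 5.15, at percentile 55.1. The libraries of the 3 windows overlapped, and the median over all gene windows was 55.5 CPM per 100 kb (quartiles 30.6 and 81.4). The order of the 3 windows is not separated by their spreads. These levels rest on 177 to 213 reads per library in the Hoxa window, 234 to 267 in the Meis1 window and 268 to 414 in the Pbx3 window.

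The number of regions gave the same picture. There were 7.5 regions per 100 kb in the Hoxa window (percentile 44.0 of gene windows), 8.36 in the Meis1 window (percentile 51.8) and 8.98 in the Pbx3 window (percentile 57.5), against a median of 8.14. The other 3 Hox clusters were given the same 50 kb margin. The Hoxb window had 5.48 regions per 100 kb and 38.4 ± 3.31 CPM per 100 kb. In the Hoxc window there were 7.42 regions and 42.9 ± 1.66 CPM per 100 kb, and in the Hoxd window 4.57 regions and 24.1 ± 0.692 CPM per 100 kb (SD, n = 3). All 3 Hoxa libraries, at 47.8 or more, lay above every library of the other Hox windows, the highest of which had 44.0 CPM per 100 kb. That difference was not tested, and the margin of 50 kb around the other clusters differs from the fixed Hoxa window.

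**Figure D2:**
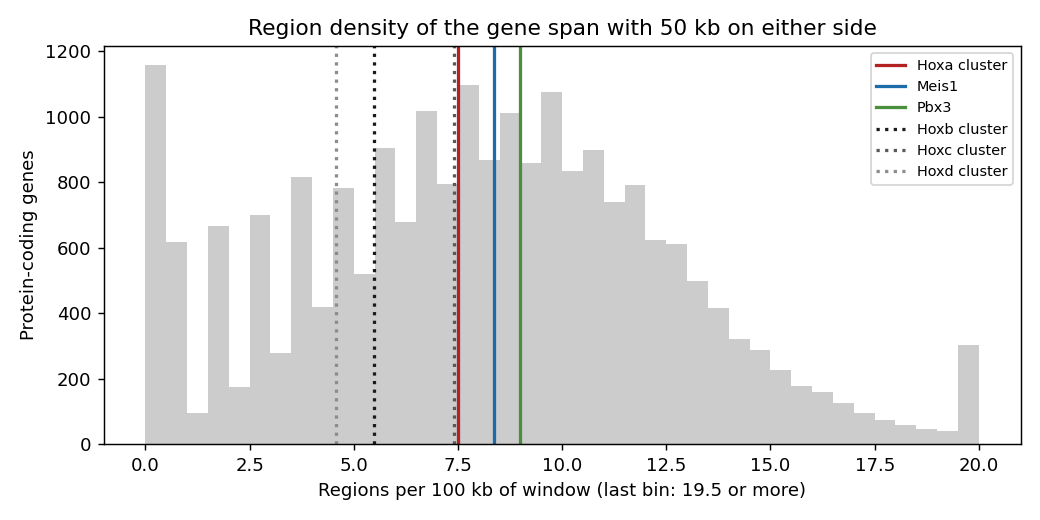
Number of protein-coding genes (y axis) by regions per 100 kb of their window (x axis; grey bars, 21887 genes). Vertical lines mark the Hoxa, Meis1 and Pbx3 windows at 7.5, 8.36 and 8.98 (solid) and the Hoxb, Hoxc and Hoxd windows at 5.48, 7.42 and 4.57 (dotted), and the 3 solid lines lie near the median of 8.14.

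Technical replicate 2, which was sequenced more deeply, was set against technical replicate 1 window by window. In libraries 1, 2 and 3 the Hoxa window had 53.4, 69.0 and 51.9 CPM per 100 kb in technical replicate 2, against 50.04, 62.1 and 26.0 in technical replicate 1. The low value of 26.0 rests on 17 reads. Meis1 had 66.6, 64.8 and 52.6 CPM per 100 kb in technical replicate 2, against 61.4, 50.4 and 58.9 in technical replicate 1. Pbx3 had 59.7, 58.5 and 69.6 in technical replicate 2, against 48.8, 48.6 and 47.9 in technical replicate 1. Technical replicate 2 was higher in 3 of 3 libraries in both the Hoxa and the Pbx3 window. In the Pbx3 window the 2 replicates also did not overlap, and its mean was 48.4 in technical replicate 1 alone. How many other gene windows share this pattern is not given here.

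Within the Hoxa window the regions were not spread evenly. The stretches described here were drawn after the positions had been seen, so they are a description only. From Hoxa5 to Hoxa10, the stretch that holds the Hoxa genes followed here, there were 5 regions in 39.1 kb, or 12.8 per 100 kb, with 99.0 ± 16.1 CPM per 100 kb (SD, n = 3). The stretch above Hoxa13, with Hottip, had the same density of 12.8 per 100 kb (5 regions) and 88.2 ± 18.4 CPM per 100 kb. Between them, from Hoxa11 to Hoxa13, which act in limb and urogenital development, lay 1 region, with 45.9 ± 9.32 CPM per 100 kb. The Hoxa5 to Hoxa10 and Hottip stretches overlapped across libraries, and both lay above the Hoxa11 to Hoxa13 stretch in every library.

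The strongest region of the Hoxa window was chr6:52266936-52267045, within Hottip and 6056 bp above Hoxa13, at 70.5 ± 66.3 CPM per kb. It had 24, 2 and 12 reads in technical replicate 2 of libraries 1, 2 and 3, against 2, 0 and 1 in technical replicate 1. Library 1 was high and library 2 low, so its place in the top 10% of the mean comes with an SD nearly as large as the level. Another was chr6:52230950-52231050, 147 bp from the Hoxa10 end, at 59.1 ± 26.4 CPM per kb. It had 9, 6 and 6 reads in technical replicate 2, against 6, 1 and 3 in technical replicate 1, so library 1 was high in both replicates.

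From the lower end upward, other regions of the Hoxa window were as follows. At chr6:52147565-52147676, in the lower part of the window, the level was 46.6 ± 32.2 CPM per kb. At chr6:52178865-52178968 within the Hoxa3 span it was 50.7 ± 34.4 CPM per kb. The region chr6:52198229-52198323, also within the long Hoxa3 span and 3431 bp below Hoxa5, had 58.6 ± 78.6 CPM per kb, with 1, 22 and 4 reads in libraries 1, 2 and 3. Library 2 alone held 84.8% of its CPM. At chr6:52206699-52206789, inside Hoxa6, the 3 libraries were even, with 49.9 ± 8.9 CPM per kb. At chr6:52212575-52212685, next to the Hoxa3 start, the level was 58.5 ± 15.8 CPM per kb. The widest region of the cluster, chr6:52221760-52222073 (313 bp), lay 1024 bp below the Hoxa9 span and had 55.1 ± 35.1 CPM per kb. Its reads in technical replicate 2 were 15, 45 and 23, against 3, 2 and 0 in technical replicate 1, and library 2 was the highest. Within Hoxa10, chr6:52233332-52233437 had 43.9 ± 30.9 CPM per kb. Beyond the genes followed here, chr6:52246493-52246689 near Hoxa11 had 46.9 ± 9.5 CPM per kb and chr6:52262109-52262362 near Hoxa13 had 43.7 ± 36.5. The last 3, between Hoxa13 and Evx1, a homeobox gene at the cluster's end, ran from 43.3 to 53.3 CPM per kb. Apart from the region in Hottip, the 14 regions of the window stood outside the top 10% of the genome's regions.

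**Figure D3:**
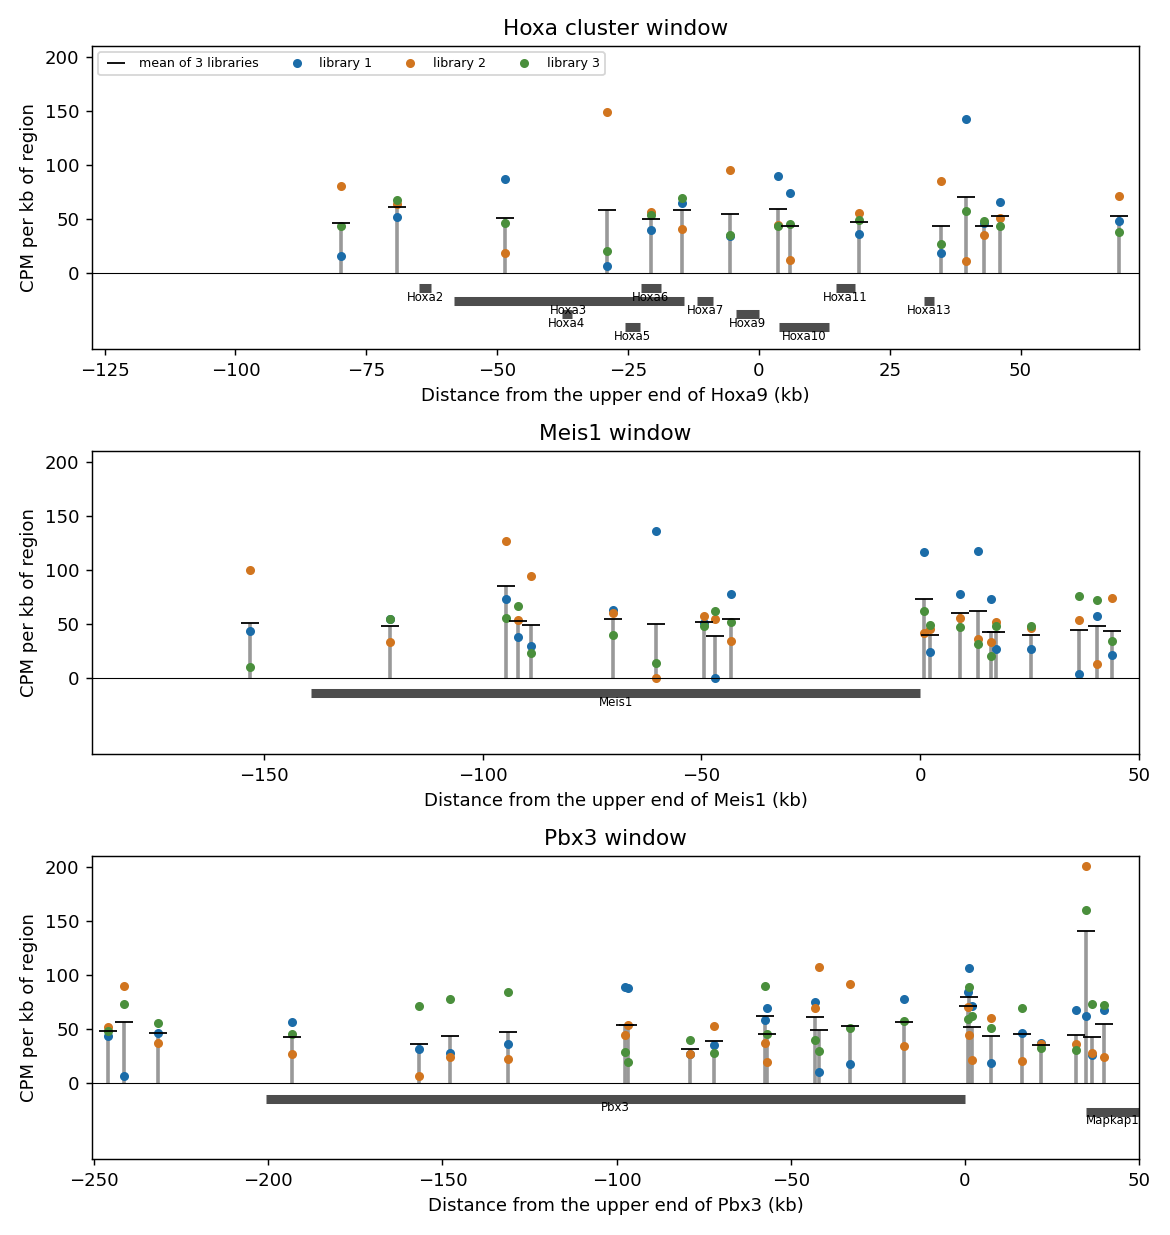
Level of every member region (CPM per kb of region, y axis) by distance in kb from the upper end of Hoxa9, Meis1 or Pbx3 (x axis); dots are libraries 1 to 3, black dashes their mean, and dark bars below zero are spans of named genes. The highest mean, 141 CPM per kb, stands at the start of Mapkap1, and the regions above the upper ends of Meis1 and Pbx3 are close together.

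Meis1 had 9 regions inside its 139.2 kb span, 1 in the 50 kb below it and 10 in the 50 kb above it. Meis1 is on the minus strand, so the 10 lie upstream of the gene. The upper flank had 20 regions per 100 kb and 125 ± 15.01 CPM per 100 kb, against 6.46 regions and 55.5 ± 6.24 CPM per 100 kb in the span and 2.00 regions and 9.79 ± 8.68 CPM per 100 kb in the lower flank (SD, n = 3). Of 43774 such flanks of protein-coding genes, 4.11% held 10 or more regions, and the median flank held 4. The density of the Meis1 span itself was at percentile 49.98 of the 2429 spans of 100 kb or longer. The CPM per 100 kb was higher upstream of Meis1 than in it in 3 of 3 libraries, and this division into span and flanks was made after the positions had been seen.

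The strongest Meis1 region, chr11:18924967-18925138, lay inside the gene at 85.4 ± 36.7 CPM per kb. Its reads were 20, 27 and 18 in technical replicate 2 of libraries 1, 2 and 3, against 1, 7 and 2 in technical replicate 1. Library 2 was the highest, and the lowest library still had 56.2 CPM per kb. The next, chr11:19020486-19020624, lay 835 bp above the upper end of the span and 1517 bp upstream of the listed start, at 73.7 ± 38.8 CPM per kb. Its reads were 23, 7 and 18 in technical replicate 2, against 4, 2 and 0 in technical replicate 1, so library 1 was the highest. The third, chr11:19032692-19032814, was 13041 bp above the gene at 61.8 ± 48.2 CPM per kb. Its reads were 22, 7 and 6 in technical replicate 2, against 2, 0 and 2 in technical replicate 1, with library 1 again far above the others.

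Inside Meis1 the region with the most reads was also the widest and the most even. It was chr11:18969991-18970366 (375 bp), with 32, 34 and 38 reads in libraries 1, 2 and 3 and 52.5 ± 4.7 CPM per kb. At the other extreme, chr11:18959263-18959368 had 24, 0 and 3 reads in libraries 1, 2 and 3, and library 1 held 90.9% of its CPM. The 0 reads in library 2 allow up to 3 reads, or 1.91 CPM over the region (not per kb), for counting error only. Library 3 had 3 reads, so libraries 2 and 3 are not told apart there. The region chr11:18972697-18972790 had 0, 8 and 12 reads, with none in library 1, and was the lowest of the window at 38.9 ± 33.9 CPM per kb. The other intragenic regions were at 48.0 to 54.7 CPM per kb, and the region below the gene was at 51.6 ± 45.7. The remaining 8 regions of the upstream flank ran from 39.6 to 60.1 CPM per kb.

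Pbx3 showed a similar division, with 14 regions in its 200.6 kb span, 3 in the 50 kb below it and 10 in the 50 kb above it. The upper flank had 20 regions per 100 kb and 148 ± 15.5 CPM per 100 kb, against 6.98 regions and 44.7 ± 3.07 CPM per 100 kb in the span and 6.00 regions and 35.3 ± 8.90 in the lower flank (SD, n = 3). Part of that flank belongs to another gene: Mapkap1 starts 34.7 kb above Pbx3, and 3 of the 10 regions lie in it. The 7 regions between the 2 genes stood at 20.2 per 100 kb, so the density was as high without Mapkap1. As for Meis1, 4.11% of flanks held 10 or more regions. The percentile of the Pbx3 span among long genes was 55.4.

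The region at the Mapkap1 start, chr2:34406704-34406818, was the strongest of the 62 at 141 ± 71.0 CPM per kb and stood at percentile 99.7 of all regions. It had 10, 29 and 34 reads in technical replicate 2 of libraries 1, 2 and 3, against 2, 7 and 4 in technical replicate 1. Libraries 2 and 3, at 201 and 160 CPM per kb, were both in the top 10%, and library 1 was at 62.8. It is the sequence in capitals in the Mapkap1 promoter above, in which G and C make up 71.3% of the bases, against 49.7% over the 300-base window. Although it falls in the window of Pbx3, it lies at the start of the neighbouring gene.

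Next to Pbx3 itself lay a pair of strong regions just above its upper end. The first, chr2:34373152-34373281, was 1107 bp from the gene at 80.1 ± 32.03 CPM per kb. It had 19, 7 and 17 reads in technical replicate 2, against 4, 2 and 7 in technical replicate 1, so libraries 1 and 3 were high and library 2 was lower. The second, chr2:34372863-34373025, was 818 bp from the gene at 71.6 ± 12.7 CPM per kb. Its reads were 17, 18 and 18 in technical replicate 2, against 6, 0 and 2 in technical replicate 1, and it had the smallest SD of the 6 strong member regions, although it reached the top 10% in 0 of the single libraries. A further region 2043 bp from the gene, chr2:34374088-34374204, had 52.0 ± 26.5 CPM per kb. The 14 intragenic regions of Pbx3 ran from 31.5 to 62.4 CPM per kb, with 0 in the top 10%. The highest of these, chr2:34314538-34314639, had 62.4 ± 26.4 CPM per kb, and the lowest, chr2:34293084-34293439 (355 bp), had 31.5 ± 7.9. The 3 regions in the 50 kb below Pbx3 had 46.6 to 56.5 CPM per kb.

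Each gene was given the level of its strongest region within 5 kb of either end of its span. Pbx3 was the highest of the 7 at 80.1 ± 32.03 CPM per kb (percentile 78.9 of genes with a region), followed by Meis1 at 73.7 ± 38.8 (percentile 73.4). Hoxa9 and Hoxa10 shared a region at 59.1 ± 26.4 (percentile 50.7). Hoxa5 had 58.6 ± 78.6, and Hoxa6 and Hoxa7 shared the region at the Hoxa3 start at 58.5 ± 15.8 (SD, n = 3 libraries). No neighbours in this order differed by more than the larger of their SDs. The median gene with a region was at 58.8 CPM per kb, so the 5 Hoxa genes were near it. The genes in the top 10% of gene values, which began at 101.8 CPM per kb, numbered 0 of the 7, beside 10.0% of the 16133 genes with a region. The choice of unit moved the Hoxa genes in both directions. In CPM not divided by width, Hoxa7 and Hoxa9 took the value of the 313 bp region below Hoxa9, 17.2 ± 11.0 CPM, at percentile 87.2 of genes. Hoxa6 was then at percentile 31.0, Hoxa10 at 23.7 and Hoxa5 at 17.6, while Pbx3 was at 70.9 and Meis1 at 64.1.

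**Figure D4:**
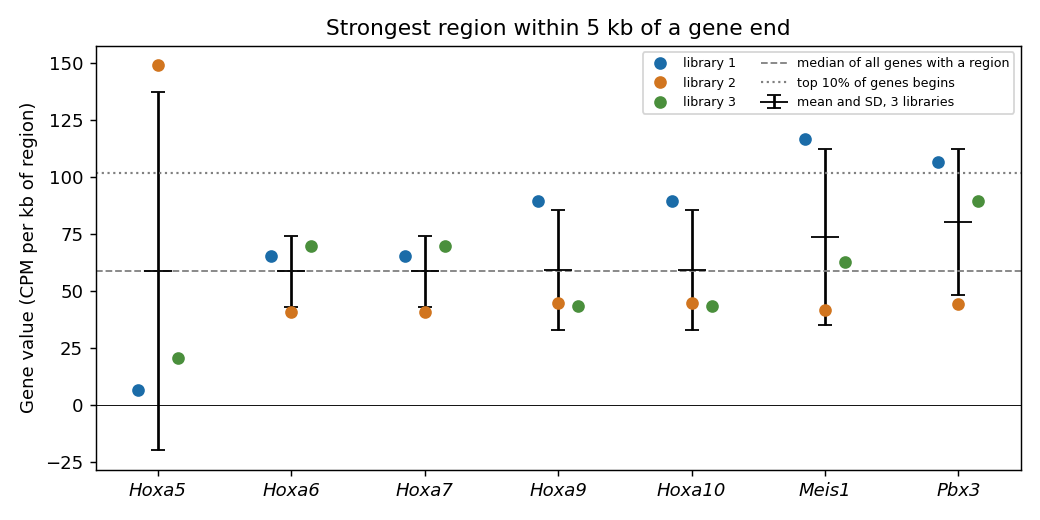
Gene value of the 7 genes (y axis, CPM per kb of their strongest region near an end); dots are libraries 1 to 3, bars the mean and SD. The dashed line is the median of all genes with a region (58.8) and the dotted line the start of the top 10% (101.8); every mean lies below the dotted line, and the 5 Hoxa means lie on the dashed one.

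Genes related to the members by family or by MLL fusion were described in the same way. The lists were drawn up with earlier results of these data known. Of 7 other genes of the Hoxa cluster 5 had a region near an end and 0 were in the top 10%, and the lowest was Hoxa13 at 43.7 ± 36.5 CPM per kb. Of 10 other MEIS and PBX family genes 6 had a region and 1 was in the top 10%, Pknox1, a partner of PBX proteins, at 113 ± 48.0 CPM per kb. The lowest of them was Tgif2, a transcriptional repressor of the TALE homeodomain class, at 45.8 ± 8.6. Of 28 genes of the other Hox clusters 15 had a region and 2 were in the top 10%, Hoxb8 and Hoxb9, which share a region at 106 ± 50.9 CPM per kb, and Hoxd4 was lowest at 41.1 ± 6.5. Of 20 other genes known as MLL fusion targets 16 had a region and 1 was in the top 10%, Cbx5, which encodes a heterochromatin protein, at 146 ± 34.5 CPM per kb. Sox4, a transcription factor of progenitor cells, was lowest at 44.1 ± 18.3. The shares of genes with a region were 71.4%, 60%, 53.6% and 80% in these lists, in the order given. They were 7 of 7 for the members and 73.7% for all 21887 protein-coding genes. The other Hoxa cluster genes, the MEIS and PBX family and the other Hox clusters thus lay below all genes, and the other MLL fusion targets above. These differences were not tested. The medians of these lists were 58.5, 58.2, 56.5 and 61.8 CPM per kb, against 59.1 for the 7 members and 58.8 for all genes with a region.

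The gene windows most like each locus over the 3 libraries (smallest distance of log2 CPM per 100 kb plus 1) were those of Kcnj2, Pacs2 and Slc7a9 for the Hoxa window, Mis12, R3hdml and Ndufb3 for Meis1, and Tmem220, Bik and Bud23 for Pbx3. Their distances were 0.0262 to 0.0483, and the Kcnj2 window had 52.9, 67.3 and 48.6 CPM per 100 kb in libraries 1, 2 and 3.

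Counts were tested across all regions with edgeR's quasi-likelihood test to ask whether regions differ between technical replicates or between libraries. Of 27452 regions with enough reads, 17 were members. Between technical replicate 2 and technical replicate 1 the test called 0 of these 17, beside 0.259% of all tested regions. The smallest adjusted p of a member in this edgeR test, with the library as a block, was 0.355, for the 313 bp region below Hoxa9. This region had a log2 fold change of 2.36 ± 0.87 (SE) and more CPM in technical replicate 2 in 3 of 3 libraries. That fold change is 1.99 when libraries are scaled by total counts, and the median over all tested regions was 0.41 with TMM scaling and 0.05 with total counts. The median over the 17 tested members was 1.15 with TMM scaling, above that of all tested regions. The difference between these medians was not tested. Between libraries edgeR called 0 of the 17, beside 0.0146% of all tested regions. At an unadjusted p under 0.05, 1 of the 17 differed between technical replicates and 2 between libraries, against 6.86% and 4.35% of all tested regions. DESeq2 called 0 members in either test (0 of the 5 members it tested between technical replicates and 0 of 62 between libraries), and with no filter on low counts edgeR tested all 62 members and called 0. The regions under 0.05 between libraries were the Meis1 region with 24, 0 and 3 reads and chr11:19055829-19055993, 36178 bp above Meis1, with 1, 14 and 26 reads in libraries 1, 2 and 3. Member regions held a median of 29.5 reads over all 6 samples, against 31 for all regions.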

How the data were processed

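CUT&RUN, in which an antibody directs a nuclease to its target and the released DNA is sequenced, was done with paired ends, per the labels. The authors deposited raw read counts per region over 1 region set common to the samples, with no normalization. Per the submitters' processing notes the build was mm10, and the tools listed include Bowtie2 2.3.3.1 and MACS2. Which samples the peaks came from, their threshold and the counting tool: not given in the sources used here. Many counts were even, as if both mates were counted (47.5 to 64.5% of nonzero member counts in technical replicate 2, against 71.1 to 75.6% in technical replicate 1), so intervals and floors cover counting error only.

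Technical replicate 2 held 1296355 to 1755015 reads in regions per sample, and technical replicate 1 held 273896 to 326440. Both technical replicates belong to the same library, per the labels, and were summed before means and SDs over 3 libraries. Genes and listed starts came from RefSeq tables of GRCm38.p6; the gene table holds no strand. A limit for 0 reads is 3 reads of the library's total. Counts were tested with edgeR 4.0.16 in R 4.3.3 (filterByExpr, TMM, glmQLFit and glmQLFTest, Benjamini-Hochberg over all tested regions, adjusted p under 0.05), with the library as a block between technical replicates and the technical replicate as a term between libraries. DESeq2 1.42.0 was an alternative, and the test was tried on simulated data. Other steps used Python 3.11.15, numpy 2.4.6, pandas 2.3.3 and matplotlib 3.10.9. The members, lists and rules were chosen with earlier results of these data known. Named genes are the 7 members, the highest and lowest of each list, and the 3 most similar windows per locus, and named regions are all by position with the 3 highest of each window in full. Some results that this rule names are not reported here.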

Additional observations from a re-analysis of the deposited data

Results flagged for a closer look

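Of 8 groups of 6 samples tested for a single sample far from the rest (the 3 windows and the 5 regions that give the genes their values), 2 were marked. Chance marks about 1 in 20 groups of independent, normally spread values. These 6 samples are 2 technical replicates of unlike depth from each of 3 libraries, with few reads, so that rate need not hold here. At the region that Hoxa6 and Hoxa7 share, library 2 had 0 CPM per kb in technical replicate 1, the lowest sample, and the next sample had 49.1. At that sample's depth 0 reads allow up to 10.95 CPM over a region. The mean of this region over the libraries was 6.44 CPM, not divided by width. The 0 therefore does not separate that sample from the rest. At the region that Hoxa9 and Hoxa10 share, library 1 had 200.2 CPM per kb in technical replicate 1, the highest sample, and the next had 91.9; these rest on 6 and 3 reads. The cause was not tested.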

How the results depend on the processing

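The number of regions called moved with the test, and the members called stayed at 0 under every alternative run. Between technical replicates 71 regions were called with the library as a block, and with no replicate block 50. The count was 55 with total counts, 51 with DESeq2 and 46 with no filter on low counts, and 0 to 18 when 1 library was left out (18, 0 and 8 without library 1, 2 and 3). Between libraries 4 were called, and 0 to 4 when 1 library was left out (0 without library 2 or without library 3). The 6 members in the top 10% became 13 in CPM not divided by width and 0 of 8 when only regions of at least 200 bp were ranked; the other 7 alternatives, which include leaving out the regions in Mapkap1 (added after seeing the data), stayed within 1.5 times. With only regions of at least 200 bp, window signal was 21.1 (Hoxa), 16.8 (Meis1) and 7.44 (Pbx3) CPM per 100 kb at 1.5, 1.25 and 0.665 regions per 100 kb, since fewer regions were counted. Meis1 signal was 69.0 with a 20 kb margin and 49.9 with a 100 kb margin. Pbx3 signal was 52.31 with a 20 kb margin, 48.4 in technical replicate 1 alone and 54.4 without the regions in Mapkap1; the cause was not tested. The other 18 of 26 window signals moved by less than 1 SD. Of 47 gene values 44 did too; in technical replicate 1 alone Hoxa9 and Hoxa10 were at 110 CPM per kb and Hoxa7 at 38.8. Gene values in CPM not divided by width have another unit and were not compared by SD; their percentiles were 17.6 to 87.2 for the 5 Hoxa genes, against 49.3 to 50.7 per kb.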
